A study of Mus musculus with 9 samples.

Results

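Cells of the Nkx2.1 line were compared with cells of the SOM and VIP lines pooled, with equal weight per line. All 9 libraries of the series entered, 3 from Nkx2.1-CreER;Ai47 mice, 3 from SOM-Cre;Ai47 mice and 3 from VIP-Cre;Ai47 mice, and 10728 of the 23319 counted genes had enough reads to be tested. Ai47 is a reporter allele that switches on green fluorescent protein in cells where Cre recombinase has acted. The mice were at postnatal day 5, and each library was made from 150 fluorescent cells that were picked by hand from dissociated layer 2/3 tissue of prefrontal and cingulate cortex. CreER needs tamoxifen to act, and the Nkx2.1 mice were given it on embryonic day 17, while no treatment is listed for the SOM and VIP mice. The driver line and tamoxifen therefore cannot be told apart in any difference given here. The libraries are numbered 1 to 3 within a line as in their titles, and the labels do not say whether each had its own animals. The p-values then reflect the spread among these samples alone, which may be technical.

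Cortical interneurons arise mainly in the medial and the caudal ganglionic eminence (MGE and CGE) of the embryonic brain. The transcription factor Nkx2-1 specifies the MGE and switches on Lhx6, and most cortical interneurons turn Nkx2-1 off as they migrate, so a late pulse of tamoxifen labels cells that were born late. Among those late-born cells are the chandelier cells, whose axons contact the axon initial segment of pyramidal neurons, and the labels also call the Nkx2.1 line the chandelier cell line. SOM interneurons share the MGE origin and mainly contact dendrites, whereas VIP interneurons come from the CGE and mainly inhibit other interneurons. A gene that sets the Nkx2.1 cells apart from both lines thus differs from an MGE and from a CGE type, but a pooled difference can also come from 1 line alone, so the value against each line is given beside the pooled one.

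The labels were first checked against the genes behind them. Nkx2-1 had 12, 10 and 1 reads in Nkx2.1 replicates 1, 2 and 3, a single read in the third SOM library and none elsewhere, too few to be tested. Sst and Vip, the peptide genes of the other lines, were at 0 to 36.4 and 0 to 3.55 CPM in the Nkx2.1 libraries. CPM is the read count of a gene relative to all reads in tested genes, after scaling with TMM factors. In the lines named for them, Sst stood at 1456 CPM or more and Vip at 414 CPM or more. Gad1, an enzyme of GABA synthesis, lay between 925 and 1957 CPM in all 9 libraries. Slc32a1, the vesicular transporter that loads GABA, was at 0.915, 4.35 and 8.43 CPM in Nkx2.1 replicates 1 to 3, under the 15.3 to 78.1 CPM of the 6 other libraries, but it was not called (log2 -3.58 ± 1.33 SE, edgeR adjusted p = 0.272). At a common depth of 6484488 reads, the smallest library, the Nkx2.1 libraries held 10265, 7875 and 9194 genes with a read, against 10785 to 11367 in SOM and 9522 to 10752 in VIP libraries. The difference of the means was -1581 genes (exact permutation test over 84 splits, two-sided, p = 0.0238, where 0.0119 is the smallest possible). It lost significance without Nkx2.1 replicate 2 (-963, exact p = 0.107) or 3 (-1623, exact p = 0.0714), SOM replicate 1 (-1563, exact p = 0.0536) or VIP replicate 2 (-1569, exact p = 0.0536). Fewer libraries allow fewer splits, so the smallest possible p is then higher than 0.0119. Without Nkx2.1 replicate 3 the difference itself was not smaller. Of the tested genes, 61.2% had a read in all 3 Nkx2.1 libraries, against 85.7% in SOM and 78% in VIP, and log CPM of pairs of libraries correlated across genes at 0.485 to 0.506 for Nkx2.1, 0.667 to 0.715 for SOM and 0.575 to 0.646 for VIP, where genes are not independent replicates.

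In the Nkx2.1 cells 28 genes rose and 11 fell at an adjusted p under 0.05 (edgeR quasi-likelihood test, Benjamini-Hochberg over all tested genes), which is 0.261% and 0.103% of the genes tested and 0.364% together. Before adjustment, 644 higher and 1001 lower genes had p under 0.05. The higher genes included transcription regulators (Mef2c, Id2, Lhx6, Tcf4, Zeb2 and Nfib), neurexin ligands and adhesion genes, the neuregulin receptor gene Erbb4 and microtubule genes. The lower genes included calcium sensors, the pump regulator Fxyd6, the transcription factor Npas1 and the synaptic organizer Cbln2. For 24 of the 28 higher and all 11 lower genes, the 3 Nkx2.1 libraries lay on the same side of all 6 others, as they did for 3.31% of all tested genes above and 5.96% below, 9.27% together. The exceptions were Thbs1, Drp2, Nfib and Rbfox1.

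The calls did not rest on the SOM and VIP lines to the same degree. Against SOM alone 9 of the 39 genes were also called and against VIP alone 26, and 3 of them, Mef2c, Fxyd6 and Rn45s, were called against each. A further 7 were called against neither line alone but passed in the pooled contrast. SOM and VIP also differed from each other in 7 of the 39 (Nxph1, Lhx6, Cntnap3, Tcf4, Nxph2, Thbs1 and Nfib), and 30 genes, 19 higher and 11 lower, were both apart from all 6 libraries and not called between SOM and VIP. When the 6 other libraries were taken as 1 group, so that the difference between their lines entered the spread, only Mef2c (log2 2.93), Hapln1 (3.87) and Rn45s (-3.39) were called, each with an edgeR adjusted p = 0.0194. Scaling by library totals without TMM moved the median log2 of all genes by -0.175 and gave 18 higher and 12 lower genes, and leaving out Nkx2.1 replicate 2 gave 7 and 4, of which 6 and 4 were among the 39.

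**Figure D1:**
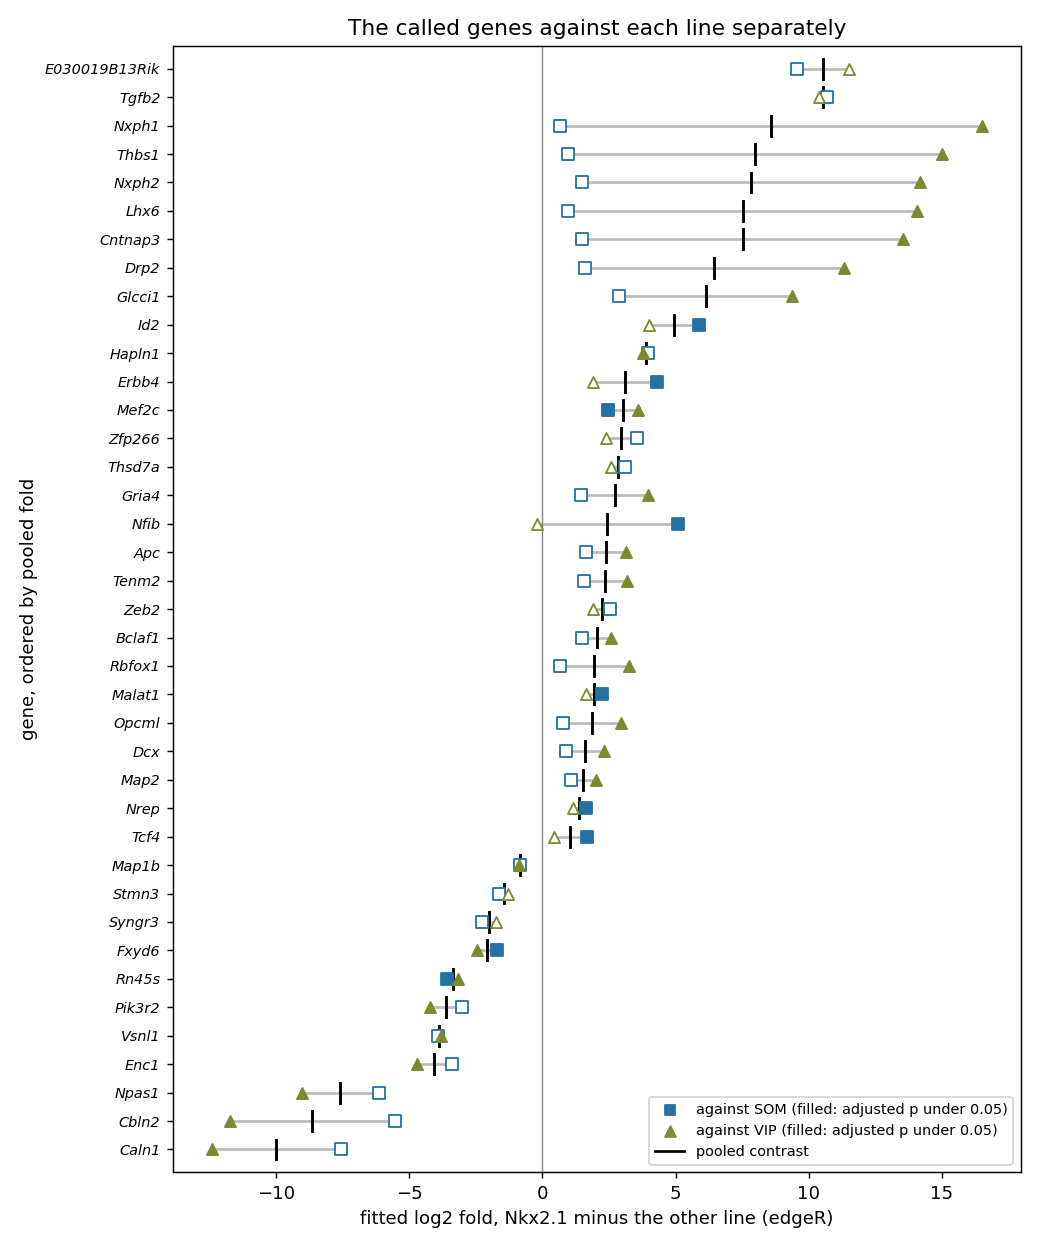
Fitted log2 fold of the 39 called genes against SOM (squares) and against VIP (triangles), filled where the edgeR adjusted p was under 0.05, with a black bar at the pooled value; the horizontal axis is log2 and genes are ordered by pooled fold. Mef2c, Fxyd6 and Rn45s are filled on both sides, whereas Nxph1, Lhx6 and Cntnap3 lie between 0.67 and 1.5 against SOM and far to the right against VIP, where 0 to 2 reads leave their position to the prior count, as for Nxph2, Thbs1, Tgfb2, E030019B13Rik and Caln1.

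The upstream sequences of 4 genes are shown because 3 of them (Mef2c, Id2 and Fxyd6) kept their call whichever library was left out, and Hapln1 and Mef2c kept theirs with SOM and VIP as 1 group. Each is the 250 bases before a RefSeq transcript start (GRCm38.p6), 5′ to 3′ on the strand of the gene, with E-boxes in capitals. The pattern of an E-box, CANNTG, matches both strands at the same place, though its middle letters can differ between them. It is the motif bound by basic helix-loop-helix factors such as Tcf4, whose dimers Id2 blocks. The windows are chr13:83503784-83504033 (plus strand) for Mef2c, chr12:25096093-25096342 (minus strand) for Id2, chr13:89540386-89540635 (plus strand) for Hapln1 and chr9:45369935-45370184 (plus strand) for Fxyd6. Those of Id2 and Hapln1 lie inside the GENCODE span of the gene, so they precede a transcript start but not the whole gene.
Mef2c: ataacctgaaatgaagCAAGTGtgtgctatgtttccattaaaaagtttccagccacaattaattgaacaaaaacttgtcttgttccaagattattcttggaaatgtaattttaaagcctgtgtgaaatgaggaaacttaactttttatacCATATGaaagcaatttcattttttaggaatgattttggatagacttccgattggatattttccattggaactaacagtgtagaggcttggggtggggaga
Id2: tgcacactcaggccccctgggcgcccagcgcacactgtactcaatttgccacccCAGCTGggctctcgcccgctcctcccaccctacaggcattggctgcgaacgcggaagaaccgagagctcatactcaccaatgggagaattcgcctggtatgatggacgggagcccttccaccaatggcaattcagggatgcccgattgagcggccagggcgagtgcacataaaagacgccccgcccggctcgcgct
Hapln1: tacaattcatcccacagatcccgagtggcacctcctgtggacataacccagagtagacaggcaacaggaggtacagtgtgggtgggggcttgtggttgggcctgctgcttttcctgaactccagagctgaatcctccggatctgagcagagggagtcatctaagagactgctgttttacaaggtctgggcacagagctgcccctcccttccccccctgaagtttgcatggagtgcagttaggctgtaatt
Fxyd6: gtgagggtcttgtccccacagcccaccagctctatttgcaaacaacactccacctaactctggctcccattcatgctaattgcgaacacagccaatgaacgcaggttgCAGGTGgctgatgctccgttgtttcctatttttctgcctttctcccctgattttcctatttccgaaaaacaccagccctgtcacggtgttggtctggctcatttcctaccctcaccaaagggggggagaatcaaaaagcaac
Mef2c held 2 E-boxes in its window, Id2 and Fxyd6 1 each and Hapln1 0. An E-box was present in 16 of the 28 called genes with a promoter in the table (57.1%) and in 66.2% of all 32851 promoters of the same length. The letters CTANNNNTAG were in 0 of the 28 and in 3.2% of all promoters. They are a loose pattern of the motif named for MEF2 factors that leaves the middle bases free, so a match need not be a MEF2 site. A match or its absence describes only the letters in this window.

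Among transcription regulators, Mef2c, Id2 and Tcf4 rose with every Nkx2.1 library above every other library. Mef2c (chromosome 13, 83504034 to 83667080, plus strand, GRCm38), a MADS-box factor that acts in the maturation of MGE interneurons, stood at 6300, 10720 and 6230 CPM in the Nkx2.1 libraries. It was at 1264, 1245 and 1670 CPM in SOM and at 483, 757 and 689 CPM in VIP libraries. The lowest Nkx2.1 library was 3.73 times the highest of the others, and the pooled log2 fold was 3.03 ± 0.22 SE (edgeR adjusted p = 0.00028), with 5.56-fold against SOM and 12.1-fold against VIP. SOM and VIP did not pass the test against each other for Mef2c (log2 1.12 ± 0.26, edgeR adjusted p = 0.296).

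Id2 (chromosome 12, 25093799 to 25097140, minus strand) encodes a helix-loop-helix protein without a DNA-binding region that holds E proteins inactive. It stood at 910, 675 and 516 CPM in Nkx2.1, 4.71, 8.35 and 22.1 in SOM and 47.7, 27.5 and 55.4 in VIP libraries. Here the gap was wider than for Mef2c, with the lowest Nkx2.1 library 9.32 times the highest of the others. The fold was 59.7 against SOM and 16.1 against VIP (pooled log2 4.95 ± 0.54, edgeR adjusted p = 0.00629; against VIP alone adjusted p = 0.0503). Tcf4, an E protein, stood at 5590, 6466 and 6365 CPM against 1789 to 2093 in SOM and 3659 to 5243 in VIP libraries. Its rise was small (pooled log2 1.05 ± 0.13, edgeR adjusted p = 0.0112), came mostly from SOM (3.15-fold, against 1.37-fold for VIP), and was not called without Nkx2.1 replicate 2 (adjusted p = 0.0679).

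Zeb2, a zinc finger factor that acts in the fate and migration of MGE interneurons, stood at 3090, 3228 and 1887 CPM in Nkx2.1, 273 to 815 in SOM and 542 to 1112 in VIP libraries. It was 5.83-fold and 3.71-fold higher (pooled log2 2.22 ± 0.38, edgeR adjusted p = 0.0443), passed against neither line alone, and kept its call in 3 of the 9 fits with a library left out (up to 0.134). Its exons overlap a microRNA gene, Mir5129, on the same strand. Lhx6 (chromosome 2, 36081953 to 36105408, minus strand) stood at 888, 1693 and 1784 CPM against 608, 822 and 805 in SOM libraries and had 2 reads in all VIP libraries together. The ratio of pooled reads against VIP was 22500 (95% counting interval 6228 to 185800), and against SOM the fold was 1.95 (edgeR adjusted p = 0.642). The gene Nfib, of the nuclear factor I family, showed the reverse: 847 to 1461 CPM among Nkx2.1 libraries overlapped the 795 to 2165 of VIP libraries and lay far above 18.1 to 53.5 in SOM libraries (34.2-fold). Lhx6 and Nfib thus entered the pooled list through 1 line each, and Nfib kept its call in 2 of 9 fits with a library left out (edgeR adjusted p up to 0.135).

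**Figure D2:**
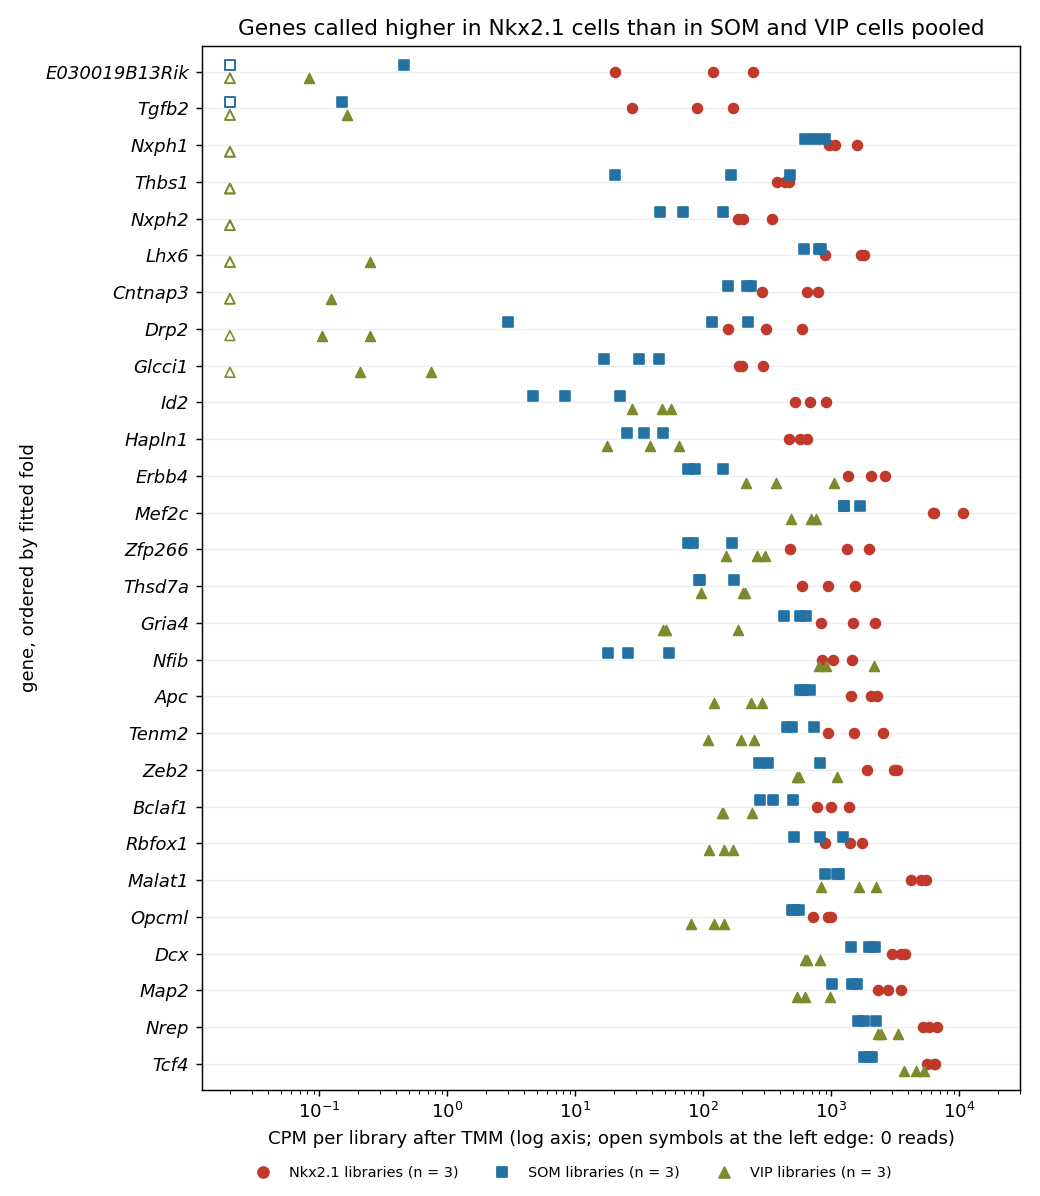
CPM of the 28 higher genes in each library on a log axis, with 3 libraries per line and open symbols at the left edge for 0 reads. Nkx2.1 circles of Id2, Hapln1 and Mef2c lie clear of both other lines, while those of Nxph1 and Lhx6 lie close to SOM squares and Nfib circles lie among VIP triangles.

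Npas1, a factor of the basic helix-loop-helix and PAS family found in CGE interneurons, was the only called transcription factor among the lower genes. Its level was 0.915, 0 and 2.17 CPM in Nkx2.1, 121, 48.0 and 54.7 in SOM and 491, 548 and 602 in VIP libraries. Both lines were above the Nkx2.1 libraries, 72.5-fold for SOM and 532-fold for VIP (pooled log2 -7.60 ± 1.28, edgeR adjusted p = 0.0429). The call was kept only without Nkx2.1 replicate 2 or 3 (adjusted p up to 0.117 in the other fits).

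By list, 3 of 9 tested MGE transcription factors rose (Lhx6, Mef2c and Zeb2) and 0 fell. Their median pooled log2 was 1.38, beside 0.0511 over all tested genes. Over all tested genes 0.261% were called higher and 0.103% lower, to be read beside the counts of every list. The list median was -0.25 against SOM and 2.16 against VIP. Satb1, a chromatin organizer of MGE interneurons, was at 107, 0.0853 and 15.7 CPM in Nkx2.1 against 350 to 620 in SOM and 1.32 to 123 in VIP libraries (log2 against SOM -3.54, edgeR adjusted p = 0.504), and Sox6 and Maf also had a negative log2 against SOM without a call. Of 9 CGE transcription factors 1 fell, Npas1, and the list median was -7.6, or -6.06 when lines with 3 reads or fewer were set to 3 reads. With that setting it was -1.53 against SOM and -9.03 against VIP. Nr2f2, which encodes the CGE factor COUP-TFII, was at 1.03, 0 and 0 CPM in Nkx2.1 against 97.8 to 339 CPM in the 6 others but was not called (log2 -9.02 ± 1.80, edgeR adjusted p = 0.104). Of 16 pan-interneuron factors 3 rose, Id2, Nfib and Tcf4, and 15 had a positive log2, with a median of 1.03.

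Genes of chandelier cells and of the pericellular matrix were represented by Erbb4 and Hapln1. Hapln1 (chromosome 13, 89539796 to 89611652, plus strand) encodes a link protein that ties proteoglycans to hyaluronan in perineuronal nets. It stood at 463, 639 and 568 CPM in the Nkx2.1 libraries against 25.2, 48.3 and 34.2 in SOM and 17.6, 38.5 and 64.6 in VIP libraries. SOM against VIP gave a log2 of -0.16 ± 0.58 (edgeR adjusted p = 0.9996), and the Nkx2.1 fold was 15.5 against SOM and 13.8 against VIP (pooled log2 3.87 ± 0.49, edgeR adjusted p = 0.0112). Without Nkx2.1 replicate 2 its adjusted p was 0.0538. Erbb4 (chromosome 1, 68032186 to 69108059, minus strand), the receptor for neuregulins, which act in interneuron migration and synapse formation, stood at 2040, 2627 and 1356 CPM. SOM libraries held 75.4 to 142 CPM and VIP libraries 366, 216 and 1043 CPM of Erbb4, so VIP replicate 3 came close to the lowest Nkx2.1 library. Its fold was 19.9 against SOM and 3.71 against VIP (pooled log2 3.10 ± 0.45, edgeR adjusted p = 0.0243). It was not called without Nkx2.1 replicate 1 (adjusted p = 0.0502) or 2 (0.0948), SOM replicate 1 (0.0713) or 2 (0.0699) or VIP replicate 1 (0.0684).

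Of the 11 tested chandelier cell genes 2 rose, Hapln1 and Erbb4, and the median log2 was 3.10, with 3.53 against SOM and 1.89 against VIP (2.92, 3.75 and 1.89 with lines of 3 reads or fewer set to 3). Fgf13, which regulates sodium channels, was at 784, 674 and 622 CPM against 158 to 611 in the others (log2 1.32 ± 0.35, edgeR adjusted p = 0.172). The log2 was positive for 8 of the 11 and negative for Cpne5, Prok2 and Kcns3, and Cpne5, a copine, was at 1.03, 54.3 and 22.5 CPM in Nkx2.1 against 48.9 to 118 in SOM and 0.124 to 27.8 in VIP libraries (log2 -0.18 ± 1.598, edgeR adjusted p = 0.982). Unc5b, a netrin receptor gene of the same list, was at 221 CPM in Nkx2.1 replicate 1 and at 0.171 and 0.584 CPM in replicates 2 and 3. Gldn, the gene of gliomedin named in the series title, had 1571 reads in Nkx2.1 replicate 1, 0 in replicates 2 and 3 and 1 in all the other libraries together, and was not tested. Nfasc (154, 2.73 and 288 CPM in Nkx2.1; log2 -0.61 ± 0.95, edgeR adjusted p = 0.852) and Igsf11 (54.1, 0.256 and 85.9 CPM; log2 6.51 ± 2.39, adjusted p = 0.269) did not pass the test. Unc5b, Gldn, Nfasc and Igsf11 were thus at or near 0 in Nkx2.1 replicate 2, and Unc5b and Gldn in replicate 3 as well. Replicate 2 was the library with the fewest genes detected, and the part of detection in these values was not tested.

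Other receptors and secreted factors among the higher genes were Gria4, Thsd7a and Tgfb2. Tgfb2, a ligand of the transforming growth factor beta family, stood at 88.7, 169 and 27.8 CPM in Nkx2.1 replicates 1, 2 and 3 and had 1 read in all SOM and 2 in all VIP libraries. The ratio of pooled reads was 2358 against SOM (95% counting interval 423 to 93180) and 1421 against VIP (393 to 11740). The spread among the Nkx2.1 libraries was also wide, and the call (edgeR adjusted p = 0.0429) was kept only without Nkx2.1 replicate 3, with an adjusted p up to 0.204 in the 8 other fits. Thsd7a, a membrane protein with thrombospondin domains, stood at 945, 1516 and 589 CPM against 92.0 to 173 in SOM and 95.7 to 209 in VIP libraries. Its folds were 8.49 against SOM and 6 against VIP (pooled log2 2.84 ± 0.41, edgeR adjusted p = 0.0231), and it was not called without Nkx2.1 replicate 2 (adjusted p = 0.0983), SOM replicates 1 and 2 or VIP replicate 1. Gria4, an AMPA receptor subunit, stood at 2190, 1486 and 825 CPM against 427 to 634 in SOM and 48.5 to 187 in VIP libraries. It was 2.76-fold and 15.7-fold higher (pooled log2 2.72 ± 0.46, edgeR adjusted p = 0.0429), with the call kept in 2 of 9 fits (adjusted p up to 0.137). It was the only one called of 18 AMPA receptor and auxiliary genes, whose median log2 was -1.99.

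Synaptic organizers were called in either direction. Nxph1 and Nxph2, neurexophilins that are secreted and bind neurexins, and Cntnap3, a contactin-associated membrane protein, rose, but mostly against the VIP line. Nxph1 stood at 952, 1075 and 1598 CPM against 897, 625 and 750 in SOM and had 0 reads in VIP libraries, a level at least 12270-fold higher than VIP (set by 3 reads over the group) and 1.595-fold higher than SOM. Nxph2 stood at 204, 186 and 341 CPM against 46.0, 69.1 and 143 in SOM and had 0 reads in VIP libraries, at least 2463-fold higher than VIP and 2.83-fold higher than SOM. Cntnap3 stood at 650, 789 and 285 CPM against 154, 237 and 219 in SOM libraries and had 1 read in VIP libraries. For these genes the Nkx2.1 libraries lay just above SOM (edgeR adjusted p against SOM = 0.532, 0.580 and 0.435), and SOM also differed from VIP. The pooled adjusted p was 0.000154, 0.0112 and 0.00111, and only that of Nxph2 was lost without 1 library, SOM replicate 2 (0.0632). Fitted log2 values against a line with 0 to 3 reads depend on the prior count, so these bounds and reads stand in their place.

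Thbs1, a secreted thrombospondin that promotes synapse formation, was even in the Nkx2.1 libraries, at 433, 376 and 462 CPM, and uneven in SOM, at 20.4, 165 and 474 CPM. It had 0 reads in VIP libraries, at least 4203-fold below Nkx2.1 (pooled edgeR adjusted p = 0.0251), and was not called without Nkx2.1 replicates 1 and 2, SOM replicate 2 or VIP replicate 1 (adjusted p up to 0.0877). Cbln2, a cerebellin that links neurexins to delta glutamate receptors, was at 0.114, 0 and 0.417 CPM in Nkx2.1, 4.28, 9.99 and 13.0 in SOM and 385, 1024 and 586 in VIP libraries. SOM was 51.3-fold and VIP 3751-fold above Nkx2.1 (pooled log2 -8.65 ± 1.13, edgeR adjusted p = 0.0116), and the call was lost without VIP replicate 2 (adjusted p = 0.0654). In total 4 of 30 tested organizers rose and 1 fell, with a median log2 of -0.000955 (0.45 against SOM and -0.07 against VIP).

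Of 18 adhesion genes around the IgLON family 2 rose, Opcml and Tenm2, and the median log2 was 1.5. Opcml, an IgLON protein anchored in the membrane by a lipid, stood at 942, 989 and 712 CPM, against 488 to 558 in SOM and 80.5 to 146 in VIP libraries (pooled log2 1.85 ± 0.29, edgeR adjusted p = 0.028). Tenm2, a teneurin that binds latrophilins across the synapse, stood at 2510, 1506 and 946 CPM against 454 to 731 in SOM and 109 to 250 in VIP libraries (pooled log2 2.36 ± 0.36, edgeR adjusted p = 0.028). In both genes the order was Nkx2.1, SOM, VIP without overlap, and the folds were 1.70 and 2.96 against SOM and 7.64 and 8.95 against VIP. With a library left out, Opcml kept its call in 2 and Tenm2 in 3 of 9 fits, with an adjusted p up to 0.107 and 0.0873. Alcam and Negr1 of this list also lay above all 6 other libraries and Iglon5 below, without a call.

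Microtubule genes moved in both directions. Dcx, doublecortin, which binds microtubules in migrating neurons, stood at 3467, 3747 and 2992 CPM against 1983, 1423 and 2201 in SOM and 625, 639 and 812 in VIP libraries (pooled log2 1.58 ± 0.18, edgeR adjusted p = 0.00646). Apc, which binds growing microtubule ends and takes part in the breakdown of beta-catenin, stood at 1417, 2257 and 2044 CPM against 568 to 675 in SOM and 121 to 287 in VIP libraries (pooled log2 2.39 ± 0.29, edgeR adjusted p = 0.00814). Map2, the microtubule-associated protein of dendrites, stood at 3469, 2293 and 2775 CPM against 1005 to 1591 in SOM and 538 to 981 in VIP libraries (pooled log2 1.53 ± 0.24, edgeR adjusted p = 0.0343). In all 3 the order was Nkx2.1, SOM, VIP without overlap. The folds of Dcx, Apc and Map2 were 1.82, 3.11 and 2.11 against SOM and 4.92, 8.89 and 3.98 against VIP. All 3 were called against VIP (edgeR adjusted p = 0.0031, 0.0092 and 0.0316) and none against SOM (adjusted p = 0.3085, 0.220 and 0.309). Without Nkx2.1 replicate 2 the adjusted p of Dcx and of Apc was 0.0538, and Map2 kept its call only without VIP replicate 1 (adjusted p up to 0.084).

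Map1b, a microtubule-associated protein of growing axons, fell to 2283, 2831 and 2814 CPM from 4538 to 4896 in SOM and 4283 to 5280 in VIP libraries. The change was the smallest of the 39 on the log2 scale (-0.86 ± 0.13, edgeR adjusted p = 0.028), with 1.77-fold against SOM and 1.85-fold against VIP, and its call was kept in 2 of 9 fits (adjusted p up to 0.0983). Stmn3, of the stathmin family that destabilizes microtubules, was at 393, 507 and 330 CPM against 1066 to 1413 in SOM and 892 to 1123 in VIP libraries (log2 -1.46 ± 0.25, edgeR adjusted p = 0.0482). Its call was lost in every fit that left out 1 library (adjusted p 0.081 to 0.147). Nrep, a small protein of regenerating and growing neurons, was at 5742, 6623 and 5233 CPM against 1619 to 2216 in SOM and 2306 to 3297 in VIP libraries (log2 1.39 ± 0.16, edgeR adjusted p = 0.00646; 0.0538 without Nkx2.1 replicate 2). Of 22 microtubule and cytoskeleton regulators 3 rose and 1 fell, with a median log2 of 0.40, and Mapt, the gene of tau, lay below all 6 other libraries without a call (log2 -0.93 ± 0.21, edgeR adjusted p = 0.153). Of 23 growth cone and immature neuron genes 2 rose and 1 fell, with a median log2 of -0.35. Below all 6 libraries lay 5 of the 23 (Basp1, Dpysl2, Dpysl5, Stmn3 and Tubb2a), beside 5.96% of all tested genes.

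On the lower side, all 11 genes were apart from both lines with no call between SOM and VIP. Fxyd6 (chromosome 9, 45370185 to 45396159, plus strand), a small membrane protein that regulates the sodium pump, was at 343, 324 and 293 CPM in the Nkx2.1 libraries. It was at 1210, 1035 and 887 CPM in SOM and at 2078, 1555 and 1701 CPM in VIP libraries. The Nkx2.1 values were close to each other (319.9 ± 25.5 CPM, SD, n = 3), and the fall was 3.26-fold from SOM and 5.56-fold from VIP (pooled log2 -2.09 ± 0.24, edgeR adjusted p = 0.00629). Of 8 tested sodium pump subunits and Fxyd regulators 1 fell, Fxyd6, and 7 had a negative log2 (median -1.25).

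Vsnl1 and Caln1 encode neuronal calcium sensors. Vsnl1, visinin-like protein, was at 38.3, 20.1 and 16.6 CPM against 274, 547 and 316 in SOM and 160, 430 and 470 in VIP libraries, a fall of 15.1-fold and 14.1-fold (pooled log2 -3.87 ± 0.62, edgeR adjusted p = 0.0344). SOM and VIP overlapped each other, and the call was kept in 2 of 9 fits (adjusted p up to 0.109). Caln1, calneuron, named after its values were seen, had 1 read in all Nkx2.1 libraries, 4.38 to 14.5 CPM in SOM and 183 to 342 in VIP libraries. The ratio of pooled reads was 286 for SOM over Nkx2.1 (95% counting interval 50.8 to 11350) and 8135 for VIP (1460 to 321400), with a pooled edgeR adjusted p = 0.0251 that was kept in 4 of 9 fits (up to 0.114).

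Enc1, Pik3r2 and Syngr3 were each several-fold lower than in both lines. Enc1, an actin-binding kelch protein, was at 13.2, 100.1 and 71.6 CPM against 561 to 757 in SOM and 859 to 2283 in VIP libraries (pooled log2 -4.06 ± 0.66, edgeR adjusted p = 0.0369). Pik3r2, a regulatory subunit of phosphoinositide 3-kinase, was at 16.7, 38.6 and 42.3 CPM against 197 to 311 in SOM and 504 to 697 in VIP libraries (pooled log2 -3.62 ± 0.49, edgeR adjusted p = 0.0142). Syngr3, a synaptic vesicle protein, was at 185, 117 and 116 CPM against 631 to 736 in SOM and 396 to 550 in VIP libraries (pooled log2 -2.02 ± 0.34, edgeR adjusted p = 0.0429). For Enc1 and Pik3r2 VIP was the higher of the other lines and for Syngr3 it was SOM. With a library left out, their calls were kept in 1, 6 and 1 of 9 fits, with an adjusted p up to 0.0841, 0.0611 and 0.17.

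**Figure D3:**
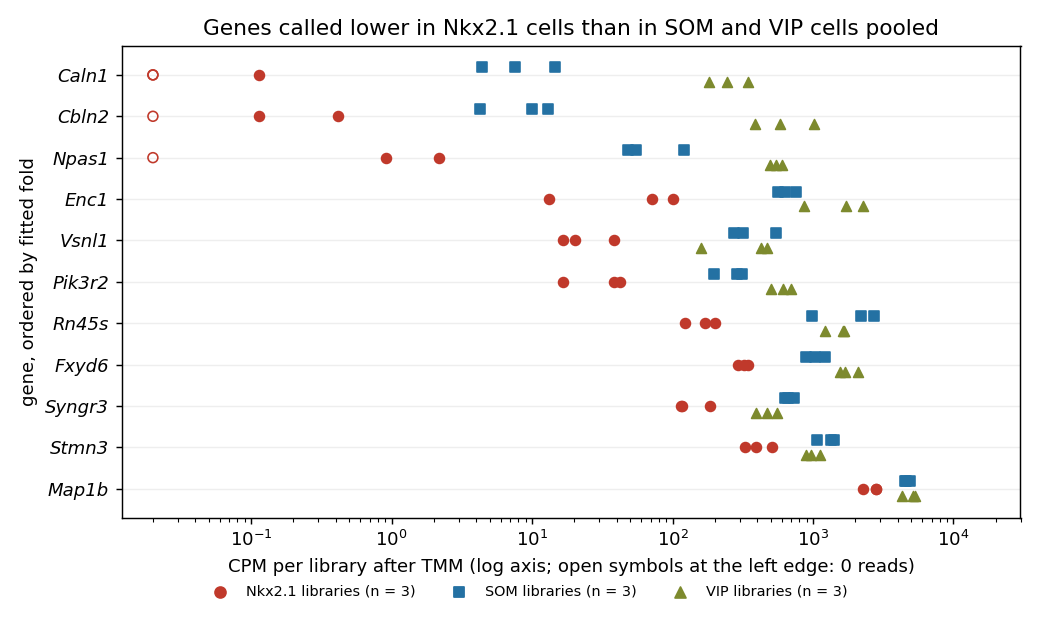
CPM of the 11 lower genes in each library on a log axis, with 3 libraries per line and open symbols at the left edge for 0 reads. All Nkx2.1 circles lie to the left of every square and triangle. For Caln1, Cbln2, Npas1, Enc1, Pik3r2 and Fxyd6 the SOM squares lie between the other lines.

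Several called genes act in or on RNA. Malat1, a noncoding RNA that stays in the nucleus, stood at 5442, 5018 and 4165 CPM against 884 to 1145 in SOM and 823 to 2223 in VIP libraries (pooled log2 1.93 ± 0.26, edgeR adjusted p = 0.0133; 0.0647 without Nkx2.1 replicate 2). Rn45s, the precursor of ribosomal RNA, moved the other way, at 202, 170 and 122 CPM against 2707, 2187 and 990 in SOM and 1649, 1219 and 1624 in VIP libraries (11.9-fold and 9.08-fold lower; pooled log2 -3.38 ± 0.38, edgeR adjusted p = 0.00629). Rn45s comes from repeated gene copies, so its value is uncertain. Each table holds a separate entry for alignments that were not unique, 64.5% to 68% of its counts, which was left out. Whether such reads were also counted in genes is not given in the sources used here. Of 7 tested nuclear noncoding RNAs Malat1 alone was called by edgeR, and of 65 cytosolic ribosomal protein genes 0 were. The ribosomal protein genes had a median log2 of 0.20, with 0.26 against SOM and -0.10 against VIP. Of the 65, 1 lay above and 6 below all 6 other libraries, beside 3.31% and 5.96% of all tested genes. Rbfox1, a splicing regulator, stood at 1406, 894 and 1729 CPM and overlapped SOM at 507 to 1241 CPM, with VIP at 111 to 172 CPM (9.45-fold), and kept its pooled call (edgeR adjusted p = 0.0429) in 1 of 9 fits (up to 0.129).

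The remaining higher genes were Zfp266, Bclaf1, Glcci1, Drp2 and E030019B13Rik. Zfp266, a zinc finger protein, stood at 1332, 1975 and 475 CPM against 75.8 to 167 in SOM and 151 to 305 in VIP libraries, 11.6-fold and 5.25-fold higher (edgeR adjusted p = 0.028, kept in 2 of 9 fits, up to 0.109). Bclaf1, a nuclear protein of transcription and RNA processing, named after its values were seen, stood at 1373, 775 and 984 CPM against 279 to 499 in SOM and 139 to 239 in VIP libraries (edgeR adjusted p = 0.0344, kept in 1 of 9 fits, up to 0.114). Glcci1, a transcript induced by glucocorticoids, stood at 201, 292 and 190 CPM against 16.9 to 44.7 in SOM and 0 to 0.743 in VIP libraries (edgeR adjusted p = 0.0366, kept in 2 of 9 fits, up to 0.147). Every Nkx2.1 library of Glcci1 was thus above both lines, but it was called against VIP alone (edgeR adjusted p = 0.0436) and not against SOM (7.4-fold, adjusted p = 0.388). Its exons overlap those of A430035B10Rik on the other strand, which had 0 to 4 reads per library. Drp2, a dystrophin-related protein, overlapped SOM, with 311, 585 and 155 CPM against 2.99, 224 and 117 CPM. In VIP libraries it was at 0, 0.104 and 0.248 CPM. It was called against VIP (edgeR adjusted p = 0.0436) and not against SOM (adjusted p = 0.7645). E030019B13Rik, for which the annotation used here gave no position, was at 245, 119 and 20.5 CPM and had 0.461 CPM or less in each of the 6 others. Drp2 and E030019B13Rik kept their calls (edgeR adjusted p = 0.0482 and 0.0429) in 1 of 9 fits each, with up to 0.204 and 0.163.

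Some genes lay as far from both lines as the called ones but did not pass the test. Gabrg3, a GABA-A receptor subunit, stood at 1075, 698 and 484 CPM against 1.94 to 76.8 in the 6 others (log2 4.12 ± 0.74, edgeR adjusted p = 0.0566). Fam19a2, a secreted chemokine-like protein, stood at 621, 1271 and 375 CPM against 0.461 to 45.02 (edgeR adjusted p = 0.138), and Cdh6, a cadherin, at 231, 108 and 149 CPM against 0 to 7.76 (0.198). Socs5, a suppressor of cytokine signalling, stood at 498, 458 and 284 CPM against 4.15 to 61.1 (0.112). In each the 3 Nkx2.1 libraries were above all others while the other libraries spread widely. On the lower side, Igf1, a growth factor of CGE interneurons among other cells, was at 2.97, 0 and 0 CPM against 130 to 996 (edgeR adjusted p = 0.112). Synpr, a synaptic vesicle protein, was at 20.8, 0 and 0 CPM against 361 to 2519 (0.172). Diras1 and Rac3, small GTPases, were at 4.58 to 22.7 and 1.19 to 28.4 CPM against 112 to 206 and 119 to 211 (0.17 and 0.194).

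Sst and Vip were not called in the pooled contrast. Of 15 SOM interneuron genes 0 were called by edgeR, with a median log2 of -6.30 against SOM and 1.72 against VIP, and of 17 VIP and CGE genes 1 fell, Npas1, with medians of -4.27 and -8.38 (-3.09 and -8.38 with lines of 3 reads or fewer set to 3). Elfn1, a synaptic protein of the SOM list, lay below all 6 other libraries (3.20, 0 and 0 CPM against 97.5 to 517; edgeR adjusted p = 0.153). Of 22 axon initial segment and node genes 0 were called, but Ank3, Scn1a and Fgf13 lay above all 6 others, as did 3.31% of all tested genes. Scn1a, a sodium channel gene, stood at 792, 733 and 580 CPM against 24.0 to 190 (log2 2.96 ± 0.68, edgeR adjusted p = 0.153), and Ank3, the scaffold of the initial segment, at 1091, 1129 and 1611 CPM against 143 to 872 (log2 1.14 ± 0.45, adjusted p = 0.282). Fos, an immediate early gene, was at 694, 1225 and 638 CPM against 29.2 to 359 (log2 2.06 ± 0.68, edgeR adjusted p = 0.245).

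Axon guidance genes, cadherins, NMDA and kainate receptor subunits, GABA-A receptor subunits, potassium channels and calcium channels held no gene called by edgeR. Of 32 axon guidance genes 24 had a positive log2 (median 0.71), and Epha5, Sema6d, Unc5c and Unc5d, all receptors or ligands of growth cones, lay above all 6 other libraries while Plxnc1 lay below. Of 22 cadherins and protocadherins, Cdh6 and Cdh12 lay above all 6 others (median 0.32, with -0.38 against SOM and 0.75 against VIP). Of 12 NMDA and kainate receptor subunits, Grik1, Grik5 and Grin2d lay below all 6 others (median 0.28, with -1.57 against SOM and 0.84 against VIP). The 11 GABA-A receptor subunits had a median of -0.42 pooled, but 0.45 against SOM and 0.12 against VIP. For 26 potassium and pacemaker channels the pooled, SOM and VIP medians were -0.19, -0.11 and -0.005, and for 18 calcium channels 0.24, -0.48 and -0.022. A pooled median can thus differ in sign from those against both lines. Gabrg3 lay above and Kcnt2 and Cacna1h below all 6 others. Erbb4 was the only called one of 4 tested Erbb receptors and neuregulins, and all 4 had a positive log2 (median 1.61). Of 65 nuclear-encoded respiratory chain genes 0 were called by edgeR (median 0.25), with 4 above and 3 below all 6 others. Beside these counts and those of the other lists, 3.31% of all tested genes lay above and 5.96% below all 6 others.

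Called genes differed in length, which the contrast did not use. The median genomic span was 102 kb for 27 higher genes with a GENCODE position, 17 kb for 10 lower ones and 27 kb for all 10068 tested genes with a position. In 4 equal classes of span, from shortest to longest, 2, 3, 3 and 19 genes were called higher and 4, 3, 0 and 3 lower. Tenm2, Opcml, Rbfox1 and Erbb4 each span over 1000 kb, and Id2, at 3342 bases, was the shortest of the higher genes. Over all genes the median pooled log2 went from -0.295 in the shortest class through 0.0125 and 0.0593 to 0.381 in the longest, a difference of 0.676. Against SOM alone the median went from -0.245 in the shortest to 0.175 in the longest class, and against VIP alone from -0.406 to 0.434. For Nkx2.1 replicates 1, 2 and 3 taken singly, the difference between these classes was 0.944, 0.453 and 0.523. These 3 values use log2 of CPM plus 1 against the mean of the SOM and VIP lines, not fitted folds. SOM against VIP showed the same order (-0.174, -0.0494, -0.0287 and 0.271), and longer genes were also more abundant, with a median CPM of 29 in the shortest and 61.2 in the longest class, so the part of abundance was not tested. Among neighbours on a chromosome, Glcci1 and Nxph1 lie 351 kb apart on chromosome 6 and Nrep and Apc 757 kb apart on chromosome 18.

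**Figure D4:**
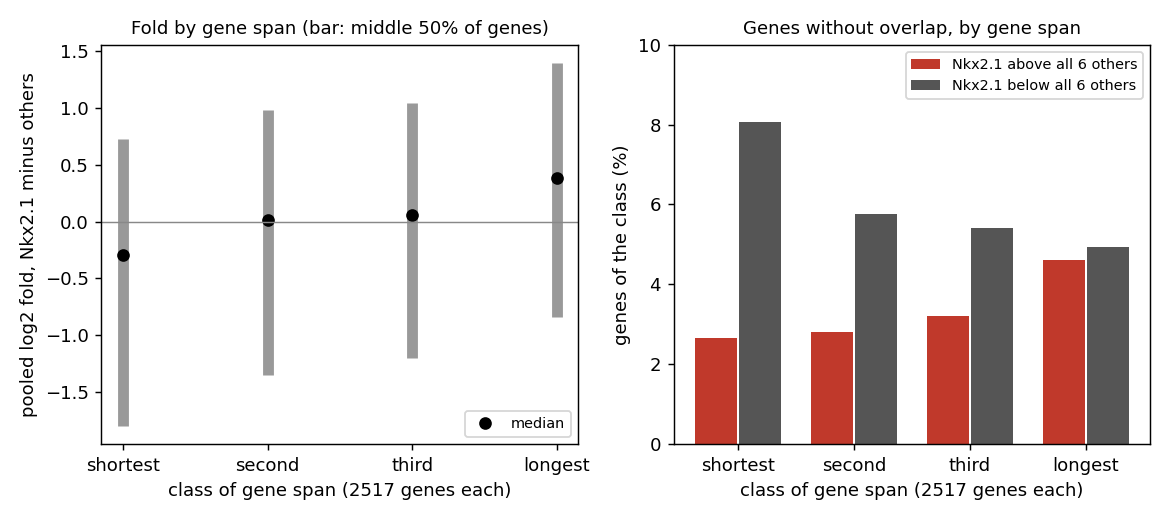
Left, median pooled log2 fold (points) with the middle 50% of genes (bars) by class of genomic span, 2517 genes each; right, the percentage of each class with all Nkx2.1 libraries above or below the 6 others. The median goes from -0.295 to 0.381, the share above from 2.66% to 4.61% and the share below from 8.07% to 4.93%.

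Markers of other cell types were read in the same libraries. The 12 astrocyte markers summed to 5482, 742 and 304 CPM in Nkx2.1, 293 to 626 in SOM and 426 to 692 in VIP libraries, so the sum was highest in Nkx2.1 replicate 1 and in replicate 2 also above the 6 libraries of the other lines. Slc1a3, a glutamate transporter of astrocytes, was at 1662, 295 and 4.93 CPM in Nkx2.1 against 0 to 63.7 in the others, and Fabp7, a radial glia and astrocyte gene, at 1249, 329 and 84.6 CPM against 26.7 to 111. Gfap was at 29.6, 43.3 and 0 CPM against at most 0.248, Aqp4 at 183, 0 and 0 CPM against at most 1.39, and Aldh1l1 at 159, 0 and 83.3 CPM against at most 65.6. High values of these genes thus occurred in more than 1 Nkx2.1 library, with different genes in each. Not every marker of the list went this way. Gja1 was at 1.14, 0 and 0 CPM in Nkx2.1 replicates 1, 2 and 3 and at 14.5 CPM in VIP replicate 2. In Nkx2.1 replicate 3 the sum of the whole list lay within the range of the 6 others. The 13 cell division genes summed to 558 CPM in Nkx2.1 replicate 1 against 17.5 to 175 in the 8 others. Of the 8 tested astrocyte markers 6 had a positive and 2 a negative log2, and 0 were called by edgeR, with a median log2 of 3.28. Oligodendrocyte lineage markers summed to 662, 261 and 343 CPM in Nkx2.1, 156 to 342 in SOM and 1.85 to 129 in VIP libraries, and Pdgfra, the receptor gene of oligodendrocyte precursors, was at 30.8, 260 and 99.1 CPM in Nkx2.1 against 0 to 38.2 in the others. Sox10, a factor of the lineage, was at 20.7, 0 and 6.93 CPM against at most 1.39, whereas Olig2 had 0 reads in all 3 Nkx2.1 libraries. Of the 6 tested oligodendrocyte markers 0 were called by edgeR, with a median log2 of 3.73 (0.76 against SOM and 5.46 against VIP). Cldn5 of endothelial cells, Pdgfrb of mural cells and Cx3cr1 of microglia had 0 reads in all 9 libraries. Excitatory neuron markers summed to 319, 3.58 and 394 CPM in Nkx2.1 and 87.1 to 211 in the others, so Nkx2.1 replicates 1 and 3 were above the 6 others. Slc17a7, their vesicular glutamate transporter, had 0 reads in the Nkx2.1 libraries, so other members of the list made up these sums. Of the 8 tested excitatory markers 4 had a positive and 4 a negative log2, and 0 were called by edgeR. Microglia and macrophage markers summed to 48.4 to 58.3 CPM in Nkx2.1 and 30.8 to 144 CPM in the others, and endothelial and mural markers to at most 0.343 CPM in Nkx2.1 and 36.7 CPM in the others.

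Without Nkx2.1 replicate 1, 14 genes were called higher, 13 of them among the 28, and 31 lower, 8 of them among the 11. Mef2c, Id2, Lhx6, Nxph1, Cntnap3, Fxyd6 and Rn45s kept their calls whichever library was left out, with an edgeR adjusted p of at most 0.00216, 0.0245, 0.0105, 0.00216, 0.0144, 0.0382 and 0.0435. No call was kept in all 18 alternatives: Mef2c and Rn45s were not called by limma-voom, and Id2, Lhx6, Nxph1, Cntnap3 and Fxyd6 were not called with SOM and VIP as 1 group. The part of other cells in the remaining differences was not tested. In bulk samples a lower level from fewer cells of a type and one from less RNA per cell cannot be told apart.

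**Figure D5:**
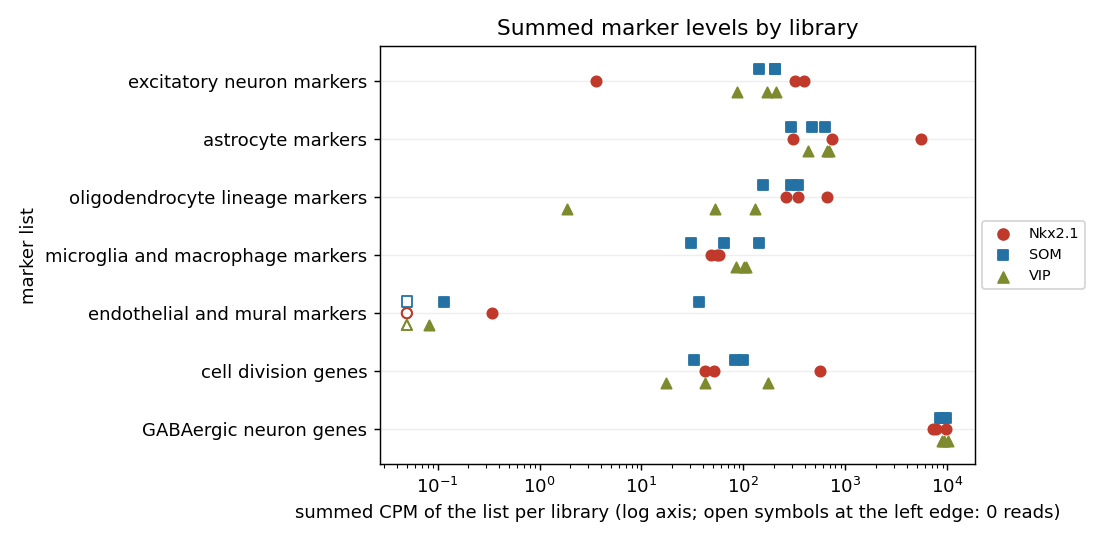
Summed CPM of 6 marker lists of other cells or states and of the GABAergic list in each library, on a log axis with open symbols at the left edge for 0 reads. Nkx2.1 replicate 1 stands at 5482 CPM for astrocyte markers and 558 CPM for cell division genes, above the 8 other libraries, while GABAergic sums lie between 7239 and 10200 CPM in all 9.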

How the data were processed

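RNA was measured in 9 libraries of hand-picked cells, and each deposited table holds the raw read counts of 1 library by gene symbol. Per the submitters' processing notes, TopHat2 2.0.9, DESeq2 and the build mm10 were used, while the sources used here give neither the counting program nor its strand setting. The 5 summary entries that name no gene held 83.6% to 85.2% of each table and were left out. The entry for alignments that were not unique held 64.5% to 68% of each table. Libraries held 6484488 to 12465997 reads in genes, and 3 reads, the floor for a bound, came to 0.248 to 0.447 CPM.

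The counts were fitted in edgeR 4.0.16 (quasi-likelihood test, R 4.3.3) with TMM, filterByExpr by group (minimum count 10) and all 9 libraries in 1 fit. It had 6 residual degrees of freedom, and its common biological coefficient of variation was 1.40. The pooled contrast was Nkx2.1 minus the mean of SOM and VIP, with Benjamini-Hochberg adjustment and a threshold of 0.05, and the standard error (SE) is the log2 fold over the square root of F. Folds against a single line are ratios of mean CPM, with no test of their own unless an adjusted p is given. With 0 to 3 reads in a line, pooled reads give the bound or the ratio with its exact 95% interval, which covers counting error only.

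Named genes were 11 genes of the study's question, called genes by fold with and without overlap, uncalled genes with no overlap and at least 100 CPM in the higher libraries, and called or abundant members of 34 gene lists. Lists are described by counts and medians, and none was tested. The comparison, its gene lists and the rule were chosen with earlier results of these data known. Gene positions come from GENCODE M21 (GRCm38, the build mm10), matched by symbol for 93.8% of tested genes, and promoters from RefSeq (GRCm38.p6), matched for 28 of the 39 called genes. The mitochondrially encoded genes were not among the symbols counted here. Same-numbered libraries of different lines did not deviate together (correlations of -0.0326 to 0.0643), so the numbers were not taken as pairs. The scripts were tested on simulated data, and normalization, filter, tool (DESeq2 1.42.0, limma 3.58.1), grouping, a replicate block and leaving out each library were varied.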

Additional observations from a re-analysis of the deposited data

How the results depend on the processing

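Of the 39 called genes, 38 kept their direction in all 18 alternatives, and Rn45s kept its own in the 17 in which it was tested. The number of higher and lower genes, 28 and 11, was 29 and 9 with DESeq2 size factors, 18 and 12 with library totals, 28 and 10 without Rn45s, 30 and 13 without a filter and 28 and 12 with at least 10 CPM in 3 libraries. The DESeq2 Wald test called 366 and 836, all 39 among them, and limma-voom 79 and 125, with 21 and 6 of the 39. With SOM and VIP as 1 group of 6 there were 2 and 1. With the replicate number as a block there were 13 and 3, all among the 39, although the numbers did not pair the libraries. Leaving out 1 library gave 7 to 25 higher and 3 to 31 lower genes, with 14 higher and 31 lower without Nkx2.1 replicate 1, 7 and 4 without replicate 2 and 25 and 24 without replicate 3. It gave 13 to 20 higher and 4 to 5 lower without a SOM library and 16 to 21 higher and 3 to 5 lower without a VIP library. Of the 39 calls 32 were lost in at least 1 of these 9 fits and 7 in none, and 0 were kept in all 18 alternatives. The cause of these changes was not tested, except that fewer libraries leave fewer residual degrees of freedom. Genes above all others numbered 391 to 883 and genes below 724 to 1387 when 1 library was left out, against 355 and 639, since fewer libraries overlap less by construction. The difference in genes detected ranged from -2158 to -963 genes with 1 library left out (exact permutation p from 0.0179 to 0.107). The median fold of the longest minus the shortest genes was 0.602 to 0.804.

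Direction was followed for the called genes, the tested genes of the study's question and the uncalled genes chosen by lack of overlap. It changed for 3 genes. Other list members named here were not followed. Gad1, at a pooled log2 of -0.07, was at 0.0071 with DESeq2 size factors and with the Wald test, 0.11 without Nkx2.1 replicate 1 or 3 and 0.099 without VIP replicate 1 (-0.48 to 0.11 over the fits with a library left out). Sst, at 0.95, was at -1.93 with limma-voom, -5.63 with SOM and VIP as 1 group and -0.12 without Nkx2.1 replicate 1 (-0.12 to 1.96). Nfib against VIP, at -0.22, was at 0.44 without VIP replicate 1 (-0.44 to 0.44). None of these 3 values was called.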
